A study of Mus musculus with 10 samples.

Results

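The 9 genes described here encode paired immunoglobulin-like receptors of myeloid cells: Lilr4b, Lilrb4a and Pirb of the LILR and PIR family, Pilra of the PILR family, Cd300a, Cd300lb, Cd300ld and Cd300lf of the CD300 family, and Sirpa of the SIRP family. A gene was taken where a probe set carried its symbol and no other, and each of the 9 had 1 such probe set, so they are 9 of 19938 genes measured. They were measured in melanoma tumours of male mice on 10 whole-transcript arrays, 1 per tumour, of which 5 came from the Exercise group and 5 from the non-Exercise group. The series title names voluntary exercise as the intervention and tumour growth and natural killer cell entry as its subject. Age, strain, the melanoma line and how long or far the mice ran are not stated in the labels used here. Each title carries its own number, which names the array below, and no label says that a number is an animal, so the errors measure the spread between these tumours.

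Receptors of these families come in pairs with like outer domains and opposite signals. Inhibitory members carry tyrosine motifs (ITIMs) in the cytoplasmic tail that recruit the phosphatases SHP-1 and SHP-2, whereas activating members have short tails and signal through adaptors such as DAP12 (Tyrobp) or the Fc receptor gamma chain (Fcer1g). On macrophages, monocytes, neutrophils and mast cells they set the threshold for phagocytosis, degranulation and cytokine release. Lilrb4a, Pirb, Pilra, Cd300a, Cd300lf and Sirpa are inhibitory members with ITIMs. Lilr4b, Cd300lb and Cd300ld lack them.

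The 9 genes were chosen by symbol with their differences between Exercise and non-Exercise arrays already known. These differences between the groups are therefore a description, with no test, and support nothing beyond themselves. The lists of family relatives, signalling partners, ligands and cell type markers used below were also chosen with earlier results of these data known. Their counts and adjusted p-values likewise describe these arrays and are no independent support. All levels are log2 probe set values after quantile normalization, and every difference is the Exercise mean less the non-Exercise mean, followed after ± by its standard error (SE) from the limma fit over all genes. Levels of different genes are not compared, because each probe set has its own brightness.

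Levels of 8 of the 9 genes were higher on average in the Exercise tumours by 0.45 to 1.63 on the log2 scale, and Sirpa was level. The fit over all genes placed 7 of the 9 above and 0 below the non-Exercise group at a Benjamini-Hochberg adjusted p under 0.05 (limma). At that threshold 6.35% of all genes were called higher and 10.6% lower, 17.0% in all. At an unadjusted p under 0.05 (limma) 8 of the 9 were higher and 0 lower, as were 2241 higher and 3581 lower of all 19938 genes. The called genes of the array were higher in 37.4% of cases, and in 23.4% after centring the arrays on their medians. Since the choice of the 9 used this contrast, nothing is read from the share. The median difference was 0.56 for the 9 genes and -0.02 for all genes. For 3 of them (Lilr4b, Lilrb4a and Cd300lf) the lowest Exercise array exceeded the highest non-Exercise array, which was the case for 3.74% of all genes.

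**Figure D1:**
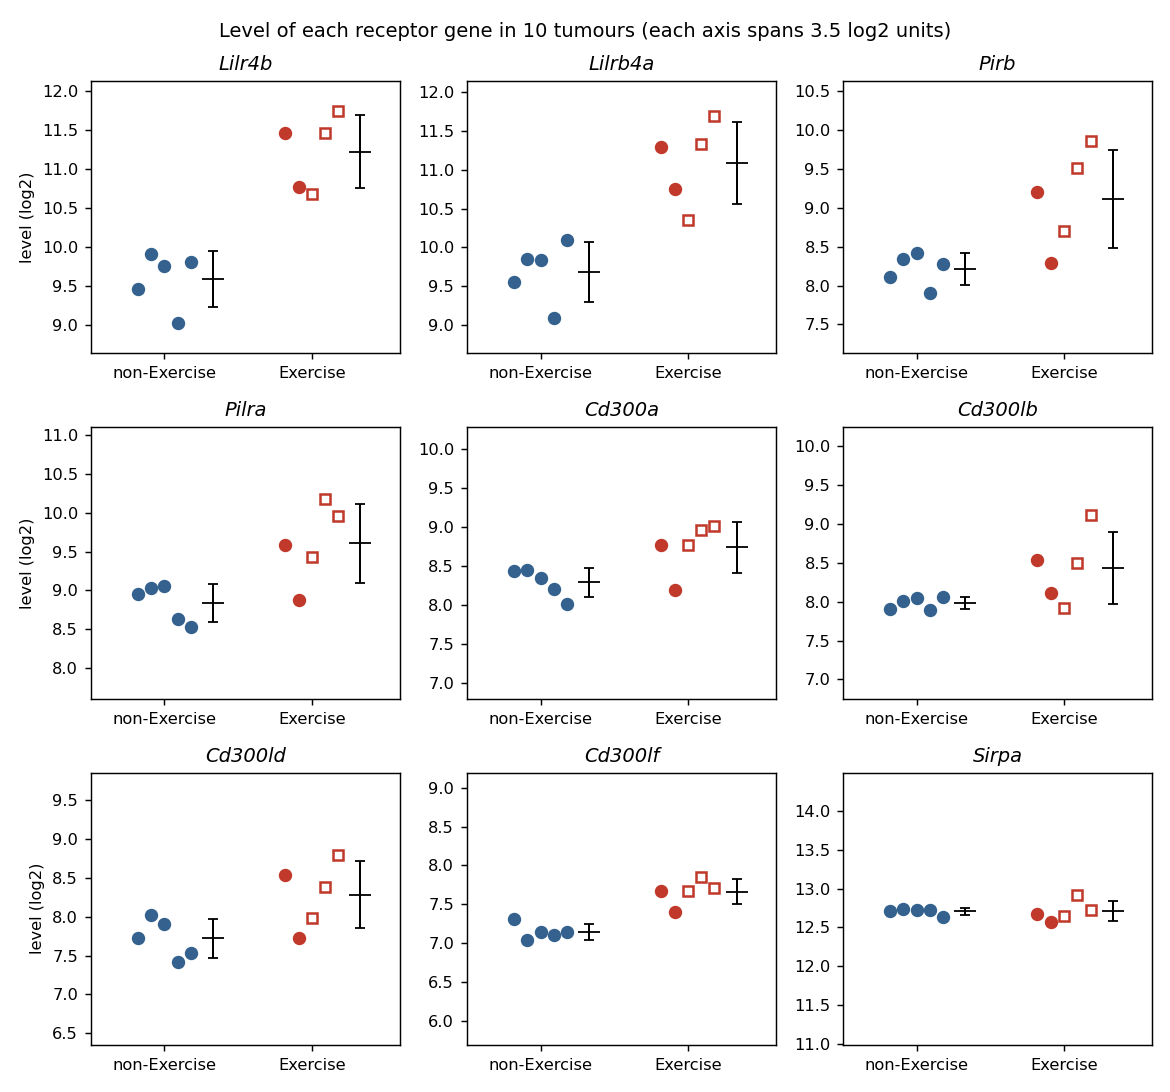
Level of each of the 9 genes (log2, vertical axis, every panel spanning the same number of units) in the non-Exercise (blue) and Exercise (red) arrays, with the group mean and SD in black beside the points; open squares are Exercise arrays 306, 309 and 310. Lilr4b and Lilrb4a separate the groups most widely, the CD300 genes overlap by 1 or 2 arrays apart from Cd300lf, and Sirpa stays near 12.71 in both groups.

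Before the single genes, the arrays themselves need a description. Exercise arrays 306, 309 and 310 had high levels of hepatocyte markers: the albumin gene Alb read 12.28 to 12.97 in these 3 against 6.84 to 9.22 in the other 7, and 10 of 12 measured hepatocyte markers were higher in all 3 than in every other array. The mean level of the 12 markers lay between 7.80 and 10.23 in the Exercise arrays and between 7.79 and 8.22 in the non-Exercise arrays. Leaving out these 3 arrays leaves 2 Exercise against 5 non-Exercise arrays. Values without them are given below for the 9 genes and for part of the other named genes. Among the cell type markers they are given for Ptprc alone. The part of these hepatocyte transcripts in the results was not tested. The tissue label was borne out by the markers: the 9 melanocyte and melanoma genes averaged 13.05 to 13.17 in the Exercise and 13.03 to 13.15 in the non-Exercise arrays, with 0 of 9 higher or lower (limma adjusted p; 2 at an unadjusted p under 0.05). Precision is limited by there being 5 arrays a group.

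Lilr4b encodes gp49A, which has no ITIM, and it had the largest difference of the 9. It read 11.46, 10.78, 10.68, 11.47 and 11.74 in Exercise arrays 300, 301, 306, 309 and 310, and 9.46, 9.91, 9.76, 9.02 and 9.80 in non-Exercise arrays 326, 327, 329, 330 and 331. The lowest Exercise array, 306, still lay 0.77 above the highest non-Exercise array, 327. The group means were 11.23 ± 0.47 and 9.59 ± 0.36 (SD, n = 5 each), a difference of 1.63 ± 0.20 or 3.10-fold.

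Its close paralog Lilrb4a encodes the inhibitory gp49B, which carries ITIMs. Its levels were 11.29, 10.75, 10.35, 11.33 and 11.68 in the Exercise arrays and 9.56, 9.85, 9.84, 9.09 and 10.10 in the non-Exercise arrays, both in the order of the numbers above. The groups did not overlap, and array 306 was again the lowest of the Exercise arrays and array 330 the lowest of all. The means of 11.08 ± 0.53 and 9.69 ± 0.38 (SD, n = 5 each) differed by 1.39 ± 0.22, or 2.63-fold. Without arrays 306, 309 and 310 the differences of this pair were nearly as large, 1.54 ± 0.22 for Lilr4b and 1.34 ± 0.21 for Lilrb4a, with both remaining Exercise arrays above the whole non-Exercise group.

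Lilr4b and Lilrb4a followed each other from array to array. Taken from their own group means, the values of Lilr4b and Lilrb4a differed by a root mean square of 0.11 over the 10 arrays. This was the second smallest of the 36 pairs among the 9 genes. The smallest, 0.09, was that of Cd300lf and Sirpa, with SDs of 0.16 and 0.13 in the Exercise arrays. The measure is also small for 2 genes that vary little, so its rank alone does not show that a pair moves together. The within-array difference, Lilr4b minus Lilrb4a, lay between 0.03 and 0.33 in the Exercise arrays and between -0.29 and 0.06 in the non-Exercise arrays. Its sign is not read, because each probe set has its own brightness. How far probes of one gene bind transcripts of the other was not tested, and the pair is reported as uncertain for that reason.

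Pirb encodes an inhibitory receptor for MHC class I molecules. It read 9.20, 8.29, 8.70, 9.51 and 9.86 in the Exercise arrays and 8.11, 8.34, 8.42, 7.90 and 8.28 in the non-Exercise arrays. Array 301 lay inside the non-Exercise range and the other 4 Exercise arrays above it. The means were 9.11 ± 0.63 and 8.21 ± 0.20 (SD, n = 5 each), a difference of 0.90 ± 0.23. A further 2 probe sets carried Pirb together with 5 further symbols, among them Pira1, Pira2 and Lilra6 of the activating PIR-A branch, and so are not counted here; their differences were 0.995 ± 0.243 and 1.05 ± 0.25. Without the 3 arrays with hepatocyte transcripts the Pirb difference was 0.54 ± 0.20, and of the 2 Exercise arrays left array 300 exceeded the non-Exercise range.

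Pilra, the inhibitory partner in the PILR pair, read 9.58, 8.87, 9.43, 10.18 and 9.95 in the Exercise arrays. In the non-Exercise arrays it read 8.95, 9.03, 9.05, 8.63 and 8.52. As with Pirb, array 301 lay within the non-Exercise range and the other 4 above it. The means were 9.60 ± 0.50 and 8.84 ± 0.24 (SD, n = 5 each), a difference of 0.77 ± 0.20, and 0.39 ± 0.19 without the 3 arrays.

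Cd300a, an inhibitory receptor that binds phospholipids exposed by dying cells, was at 8.77, 8.19, 8.77, 8.96 and 9.01 in the Exercise arrays. The non-Exercise arrays were at 8.44, 8.46, 8.34, 8.21 and 8.01. Array 301 lay below 4 of the 5 non-Exercise arrays, and the other 4 Exercise arrays lay above all of them. The difference was 0.45 ± 0.14, from means of 8.74 ± 0.33 and 8.29 ± 0.18 (SD, n = 5 each), and 0.18 ± 0.16 without the 3 arrays.

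Cd300lf encodes CLM-1, an inhibitory receptor for lipids. Its values were 7.68, 7.40, 7.67, 7.85 and 7.71 in the Exercise arrays and 7.31, 7.04, 7.14, 7.10 and 7.14 in the non-Exercise arrays. The groups did not overlap, though the gap between them was only 0.09. The Exercise arrays of this gene were the closest together of the 4 CD300 genes. The means of 7.66 ± 0.16 and 7.15 ± 0.10 (SD, n = 5 each) differed by 0.51 ± 0.09, and by 0.39 ± 0.12 without the 3 arrays. Its mean over the arrays was under 7.97, the level below which 25% of genes lie, so it is a dim probe set.

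Sirpa, the inhibitory receptor for the "don't eat me" protein CD47, showed no such difference. It read 12.68, 12.57, 12.65, 12.91 and 12.73 in the Exercise arrays, and 12.71, 12.73, 12.73, 12.72 and 12.64 in the non-Exercise arrays. The Exercise arrays lay on both sides of the non-Exercise range, 1 above it and 1 below it. Both means were 12.71, with an SD of 0.13 and 0.04 (n = 5 each), and the difference was 0.00 ± 0.06. It ranged from -0.08 to 0.04 over the other settings and with each array left out, so its sign is not settled.

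Cd300lb and Cd300ld are the members of the CD300 family here without ITIMs. Cd300lb, which pairs with DAP12, was at 8.53, 8.11, 7.92, 8.49 and 9.11 in the Exercise arrays. The 5 non-Exercise arrays were close together at 7.91, 8.01, 8.05, 7.89 and 8.06. Array 306 lay among them and the other 4 Exercise arrays above, with array 310 far ahead. The means were 8.43 ± 0.46 and 7.98 ± 0.08 (SD, n = 5 each), and the difference of 0.45 ± 0.17 did not pass the threshold of the fit; it was 0.34 ± 0.13 without the 3 arrays.

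Cd300ld read 8.53, 7.72, 7.99, 8.38 and 8.79 in the Exercise arrays. Its non-Exercise levels were 7.73, 8.03, 7.90, 7.41 and 7.54. Arrays 301 and 306 lay within the non-Exercise range, the most of any gene that passed. The means were 8.28 ± 0.43 and 7.72 ± 0.25 (SD, n = 5 each), a difference of 0.56 ± 0.18, and 0.40 ± 0.20 without the 3 arrays.

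**Figure D2:**
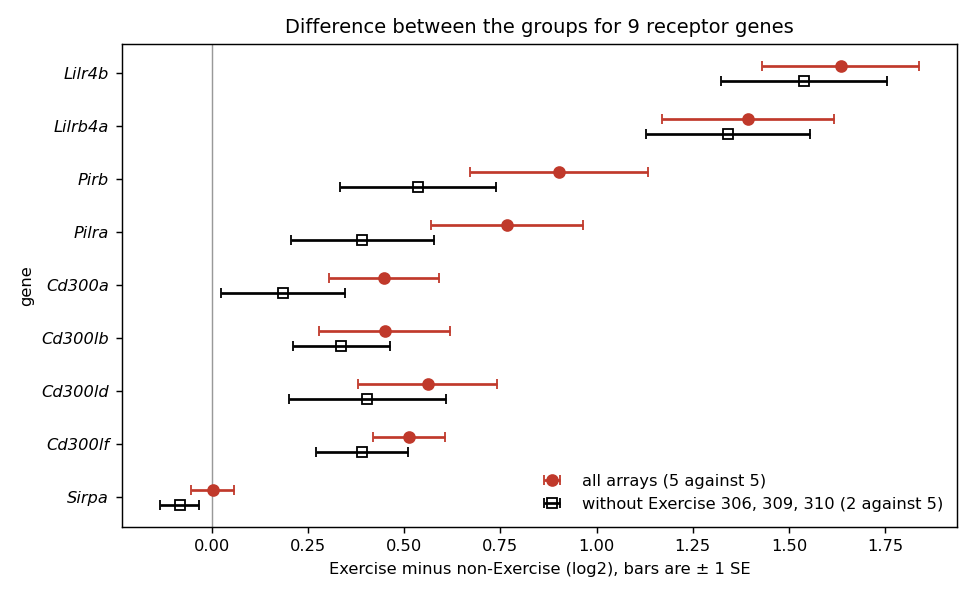
Difference of each of the 9 genes, Exercise minus non-Exercise on the log2 scale (horizontal axis), with bars of 1 SE; red circles use all 10 arrays and open squares leave out Exercise arrays 306, 309 and 310. Lilr4b and Lilrb4a stay above 1.3 in both, whereas Pirb, Pilra and Cd300a move towards 0 from 0.90, 0.77 and 0.45 to 0.54, 0.39 and 0.18.

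The highest and lowest Exercise arrays were drawn from the same few over the 9 genes, though their full order differed between genes. Array 310 was the highest Exercise array for 6 genes and array 309 for the other 3 (Pilra, Cd300lf and Sirpa). Array 301 was the lowest for 6 and array 306 for 3 (Lilr4b, Lilrb4a and Cd300lb). Array 301 lay at or below the highest non-Exercise array for 5 of the 9, array 306 for 3, arrays 300 and 310 for 1 each and array 309 for 0. Among the non-Exercise arrays, array 330 was the lowest for 5 genes. The spread within the Exercise group was larger than in the non-Exercise group for all 9, by 1.31 times (Lilr4b) to 5.84 times (Cd300lb) in SD. The calls of the fit were not equally firm. Lilr4b and Lilrb4a were called in every setting tried, and Pirb, Pilra and Cd300lf with any 1 array left out. Cd300a was called in 1 of the 10 fits that left out 1 array, the one without Exercise array 301, and Cd300ld in 3 of the 10, those without Exercise array 301, Exercise array 306 or non-Exercise array 327. Both lost their calls with no intensity trend and with array weights. Cd300ld, Pirb and Pilra lost theirs with robust variances. Cd300lb was called without Exercise array 301 or 306 and with the table as deposited. Without the 3 arrays 2 of the 9 genes, Lilr4b and Lilrb4a, passed the threshold of the fit, where 3.78% of all genes were called higher.

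Markers of several cell types were higher in Exercise along with the receptors, and their part in the differences was not tested. The median difference was 1.20 for the hepatocyte markers described above, of which only 1 of 12 passed the threshold (limma adjusted p). It was 1.02 for fibroblast and 0.88 for macrophage and monocyte markers. It was 0.79 for pan-leukocyte, 0.61 for muscle and 0.45 for adipocyte markers, with 0 of 4 muscle and 0 of 4 adipocyte markers past the threshold. Of 14 measured macrophage and monocyte markers 11 were higher in Exercise and 0 lower (limma adjusted p), with a median difference of 0.88 against 0.56 for the receptors. All 14 were higher at an unadjusted p under 0.05 (limma), as were 2241 of all 19938 genes. At the adjusted threshold 6.35% of all genes were called higher and 10.6% lower. The mean level of the 14 markers was 10.44, 9.68, 10.06, 10.81 and 10.90 in the Exercise arrays and 9.37, 9.68, 9.63, 9.11 and 9.48 in the non-Exercise arrays. The mean of the 9 receptors, 9.75, 9.19, 9.35, 9.90 and 10.07 in the Exercise arrays, had the same order: array 310, then 309, 300, 306 and 301. In the non-Exercise arrays it was 8.91, 9.04, 9.03, 8.66 and 8.90, with array 330 the lowest for both lists. Neither trait was particular to the macrophage list. Mean levels of the 6 natural killer cell markers had the same Exercise order. Those of the 5 pan-leukocyte markers differed from it only in that arrays 309 (11.42) and 310 (11.40) changed places. Array 330 was also the lowest non-Exercise array for the pan-leukocyte, dendritic cell and hepatocyte lists. Of 5 pan-leukocyte markers 4 were higher, among them Ptprc, which encodes CD45, at 1.16 ± 0.27 (limma adjusted p = 0.00921; 0.63 and not past the threshold without the 3 arrays, where limma adjusted p = 0.131, nor with robust variances, where it was 0.0554). All 4 fibroblast markers were higher in Exercise, with a median difference of 1.02 that exceeded the macrophage median: Dcn, which encodes decorin, by 1.16 ± 0.34, the collagen genes Col1a2 by 1.04 ± 0.21 and Col1a1 by 0.99 ± 0.22, and the receptor gene Pdgfra by 0.79 ± 0.22. Their mean level lay between 10.42 and 11.82 in the Exercise and between 9.66 and 10.54 in the non-Exercise arrays, with array 310 highest, as for the receptors, and array 306 lowest among the Exercise arrays. Of 8 dendritic cell markers 2 were higher (Ccr7 by 0.91 ± 0.24 and Flt3 by 0.52 ± 0.14) and all 8 differences were positive, at a mean level of 7.997 to 8.84 against 7.84 to 8.10. Of 6 natural killer cell markers 2 were higher (Klrd1 by 0.65 ± 0.15 and Klrk1 by 0.65 ± 0.19) and all 6 differences were positive, at 6.92 to 7.64 against 6.90 to 7.03. The T cell markers, 0 of 5 past the threshold (1 higher at an unadjusted p under 0.05, limma), averaged 7.40 to 8.20 against 7.44 to 7.73. Of 4 B cell markers 1 was higher (Cd79b by 0.35 ± 0.10), at a mean level of 7.53 to 7.73 against 7.58 to 7.68. Only 2 of the 4 differences were positive, around a median of -0.02, with Cd79a at -0.22 ± 0.08 and Pax5 at -0.17 ± 0.08. At an unadjusted p under 0.05 (limma) 1 was higher and 1 lower. The 10 neutrophil markers averaged 7.61 to 8.11 in the Exercise and 7.65 to 7.86 in the non-Exercise arrays, with 1 higher (Csf3r by 0.725 ± 0.136). Of the 10 differences 6 were positive, around a median of 0.07, and Ltf was at -0.55 ± 0.19. At an unadjusted p under 0.05 (limma) 2 were higher and 2 lower. Mast cell and basophil markers averaged 7.93 to 8.47 against 7.64 to 8.13, with 1 of 8 higher (Mcpt4 by 0.76 ± 0.24). Of these 8 differences 6 were positive, and Kit was at -0.35 ± 0.13. At an unadjusted p under 0.05 (limma) 2 were higher and 1 lower. In whole-tumour RNA, more cells of a type and more RNA per cell cannot be told apart.

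**Figure D3:**
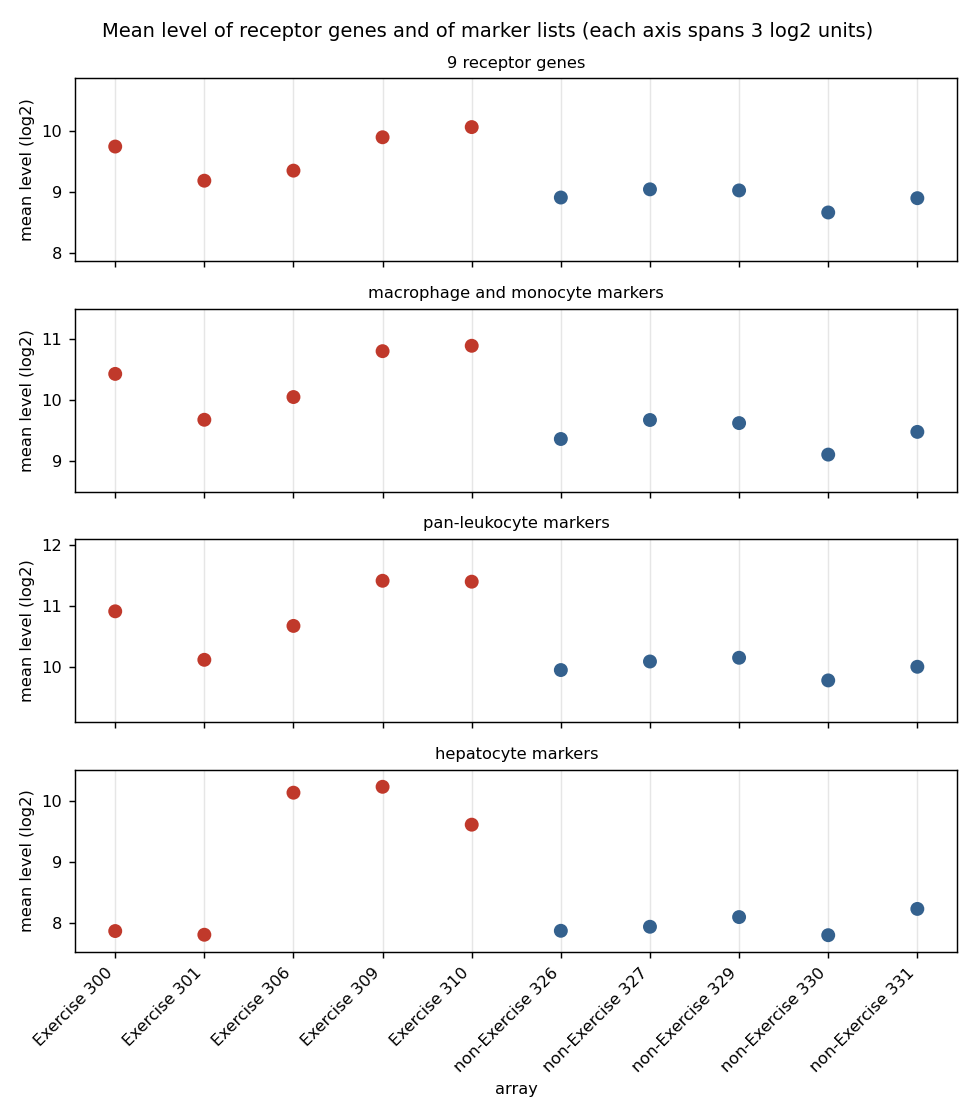
Mean log2 level (vertical axes, each spanning the same number of units) of the 9 receptor genes, 14 macrophage and monocyte markers, 5 pan-leukocyte markers and 12 hepatocyte markers in each array; Exercise arrays are red and non-Exercise arrays blue. Receptor and macrophage levels are highest in array 310 (10.07 and 10.90). The hepatocyte level is high in arrays 306 (10.13), 309 (10.23) and 310 (9.61). The receptor means of these arrays are 9.35, 9.90 and 10.07, and those of arrays 300 and 301 are 9.75 and 9.19.

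Upstream sequence was examined for the receptor genes because most were higher in the same arrays. RefSeq promoter windows on GRCm38.p6, 250 bases before to 50 after a gene's start, were found for 7 of the 9 genes, all but Lilrb4a and Sirpa. The letters searched were GAGGAA, the core bound by PU.1, the Ets-family factor of myeloid cells, and the longer GAGGAAGT, each on both strands; the longer string always holds the core. The core was in 5 of the 7 windows and in 28.3% of the 32851 windows of the table. The longer string was in 3 of the 7, those of Pirb, Cd300ld and Cd300lf, and in 3.20% of all windows. The Cd300lf match begins at the start base itself. Shown here are the 250 bases before the start of the other two and, for contrast, those of Lilr4b, the gene with the largest difference, whose window holds neither string; capitals mark every match to either string or its reverse complement.
Pirb, chr7:3720383-3720632, minus strand: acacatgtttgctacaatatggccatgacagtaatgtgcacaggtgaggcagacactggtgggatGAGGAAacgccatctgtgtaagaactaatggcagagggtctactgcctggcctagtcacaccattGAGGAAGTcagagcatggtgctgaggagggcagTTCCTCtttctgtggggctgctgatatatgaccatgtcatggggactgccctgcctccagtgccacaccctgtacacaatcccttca
Cd300ld, chr11:114989887-114990136, minus strand: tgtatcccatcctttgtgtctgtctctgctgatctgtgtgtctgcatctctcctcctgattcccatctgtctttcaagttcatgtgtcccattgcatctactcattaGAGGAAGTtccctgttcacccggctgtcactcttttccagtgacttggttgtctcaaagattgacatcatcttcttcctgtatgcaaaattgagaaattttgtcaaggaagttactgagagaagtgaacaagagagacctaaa
Lilr4b, chr10:51480362-51480611, plus strand: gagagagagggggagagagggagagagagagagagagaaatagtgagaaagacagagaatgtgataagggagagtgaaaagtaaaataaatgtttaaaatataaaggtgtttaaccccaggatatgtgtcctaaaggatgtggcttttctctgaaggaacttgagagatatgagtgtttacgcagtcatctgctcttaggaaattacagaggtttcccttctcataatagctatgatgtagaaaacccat
In Pirb the longer string lies 113 to 120 bases before the start, with another core at 180 to 185 and a reverse match at 82 to 87. In Cd300ld it lies 136 to 143 bases before the start. A match says only that these letters are present, and their absence from the Lilr4b window says nothing about the factor.

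Relatives of the 9 receptors were examined by family membership, and 13 of 31 listed had a probe set of their own. Of these, 3 were called higher and 0 lower (limma adjusted p), with a median difference of 0.36, where 6.35% of all genes were called higher and 10.6% lower. At an unadjusted p under 0.05 (limma) 8 were higher and 0 lower, as were 2241 higher and 3581 lower of all 19938 genes. Cd300c2, an activating CD300 receptor that pairs with DAP12, rose by 0.81 ± 0.23 (limma adjusted p = 0.0257); it read 9.25, 8.28, 9.14, 9.93 and 9.35 in the Exercise and 8.48, 8.69, 8.53, 8.19 and 8.02 in the non-Exercise arrays, so array 301 lay inside the range of the controls. Tarm1, an activating receptor that pairs with the Fc receptor gamma chain, rose by 0.51 ± 0.14 (limma adjusted p = 0.0214). Pilrb2, an activating partner of Pilra, rose by 0.36 ± 0.11 (limma adjusted p = 0.0406). Its sister Pilrb1 had a difference of 0.50 ± 0.17 (limma adjusted p = 0.0527), which passed with the table as deposited (0.57) or centred on medians (0.51), and when Exercise array 301 (0.63) or non-Exercise array 327 (0.57) was left out.

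These family calls were not stable. The count of 3 higher relatives was 0 when Exercise array 309, Exercise array 310 or non-Exercise array 330 was left out, and 1 without non-Exercise array 331. It was 7 without Exercise array 301, when Cd300e (0.90) and the collagen receptor gene Lair1 (0.79) passed too, and 0 without arrays 306, 309 and 310, when the differences were 0.38 for Cd300c2, 0.34 for Tarm1 and 0.13 for Pilrb2. With all arrays Cd300e was at 0.67 ± 0.25 (limma adjusted p = 0.0846), Lair1 at 0.53 ± 0.25 (limma adjusted p = 0.171) and the endothelial Cd300lg at -0.06 ± 0.15 (limma adjusted p = 0.857). The call of Cd300c2 was lost with robust variances, with array weights and when any of Exercise arrays 300, 309 and 310 or non-Exercise arrays 330 and 331 was left out (adjusted p in limma 0.000650 to 0.0648 leaving out 1 array). The same happened to Tarm1 for Exercise arrays 309 and 310 and non-Exercise arrays 327 and 330 (0.0107 to 0.0589), and to Pilrb2 for any of 8 arrays, all but Exercise arrays 300 and 301 (0.0120 to 0.0914). The activating SIRP genes Sirpb1a, Sirpb1b and Sirpb1c shared 4 probe sets with each other, whose differences of 0.80 to 1.07 cannot be assigned to 1 gene and stand beside 0.00 for Sirpa.

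Among the signalling partners, the adaptor genes Tyrobp and Fcer1g and the kinase gene Syk rose, whereas the genes of the phosphatases SHP-1 and SHP-2 did not pass. In all, 11 of 26 partners were called higher and 3 lower, and the median difference was 0.16. Of all genes, 6.35% were called higher and 10.6% lower. Tyrobp, which encodes the adaptor DAP12, was at 10.57, 9.75, 10.11, 10.99 and 11.16 in the Exercise and 9.26, 9.50, 9.43, 8.87 and 9.38 in the non-Exercise arrays. No array overlapped, and the rise was 1.23 ± 0.22 (limma adjusted p = 0.00210). Fcer1g, the Fc receptor gamma chain, rose by 1.18 ± 0.21 (limma adjusted p = 0.00185), and the groups were likewise apart, at 10.69 to 12.13 against 10.17 to 10.63. Every Exercise array lay above every non-Exercise array for 3.74% of all genes. The adaptor DAP10 (Hcst), was at 0.00 ± 0.09 (limma adjusted p = 0.987). Without the 3 arrays with hepatocyte transcripts Tyrobp (0.88) and Fcer1g (0.69) still passed (limma adjusted p = 0.0122 and 0.0227).

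Il4ra, the interleukin-4 receptor chain with which CD300f associates, rose by 1.14 ± 0.16 (limma adjusted p = 0.000433), and by 1.03 without the 3 arrays. Vav1, an exchange factor of leukocyte receptor signalling, rose by 1.08 ± 0.23 (limma adjusted p = 0.00547), Inpp5d, which encodes the lipid phosphatase SHIP-1 recruited by inhibitory receptors, by 0.98 ± 0.20 (limma adjusted p = 0.00502), and the kinase gene Syk by 0.80 ± 0.18 (limma adjusted p = 0.00844). Without the 3 arrays Inpp5d passed (0.62), whereas Vav1 (0.59, limma adjusted p = 0.0986) and Syk (0.53, limma adjusted p = 0.0733) did not, and 5 partners were higher in place of 11.

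Ptpn6, which encodes SHP-1, read 10.09, 10.14, 10.56, 10.75 and 10.46 in the Exercise arrays. The non-Exercise arrays were at 10.54, 10.52, 10.55, 10.54 and 10.37. Exercise arrays 300 and 301 lay below all non-Exercise arrays and arrays 306 and 309 above them. The difference was -0.10 ± 0.11 (limma adjusted p = 0.616), and without the 3 arrays with hepatocyte transcripts it was -0.39 and passed (limma adjusted p = 0.00537). Ptpn11, which encodes SHP-2, had a difference of -0.10 ± 0.06 (limma adjusted p = 0.329).

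Tlr4, the receptor for lipopolysaccharide, fell by 0.34 on the log2 scale (SE 0.08, limma adjusted p = 0.0126). All 5 Exercise arrays, at 9.48 to 9.919, lay below the non-Exercise arrays, at 9.925 to 10.14, but only just. Dok1, an adaptor that restrains kinase signalling, changed by -0.29 ± 0.06 (limma adjusted p = 0.00616), and Grb2, a general adaptor, by -0.25 ± 0.07 (limma adjusted p = 0.0203). Grb2 lost its call without non-Exercise array 327 or 329 (-0.22 in each case; adjusted p in limma 0.00860 to 0.0617 leaving out 1 array). For each of these 3 genes every Exercise array lay below every non-Exercise array, as for 8.33% of all genes. The gap was narrow for Grb2 too, between 9.948 in the highest Exercise array and 9.959 in the lowest non-Exercise array. Without the 3 arrays with hepatocyte transcripts the differences were -0.40 for Tlr4, -0.37 for Dok1 and -0.30 for Grb2, and each passed.

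**Figure D4:**
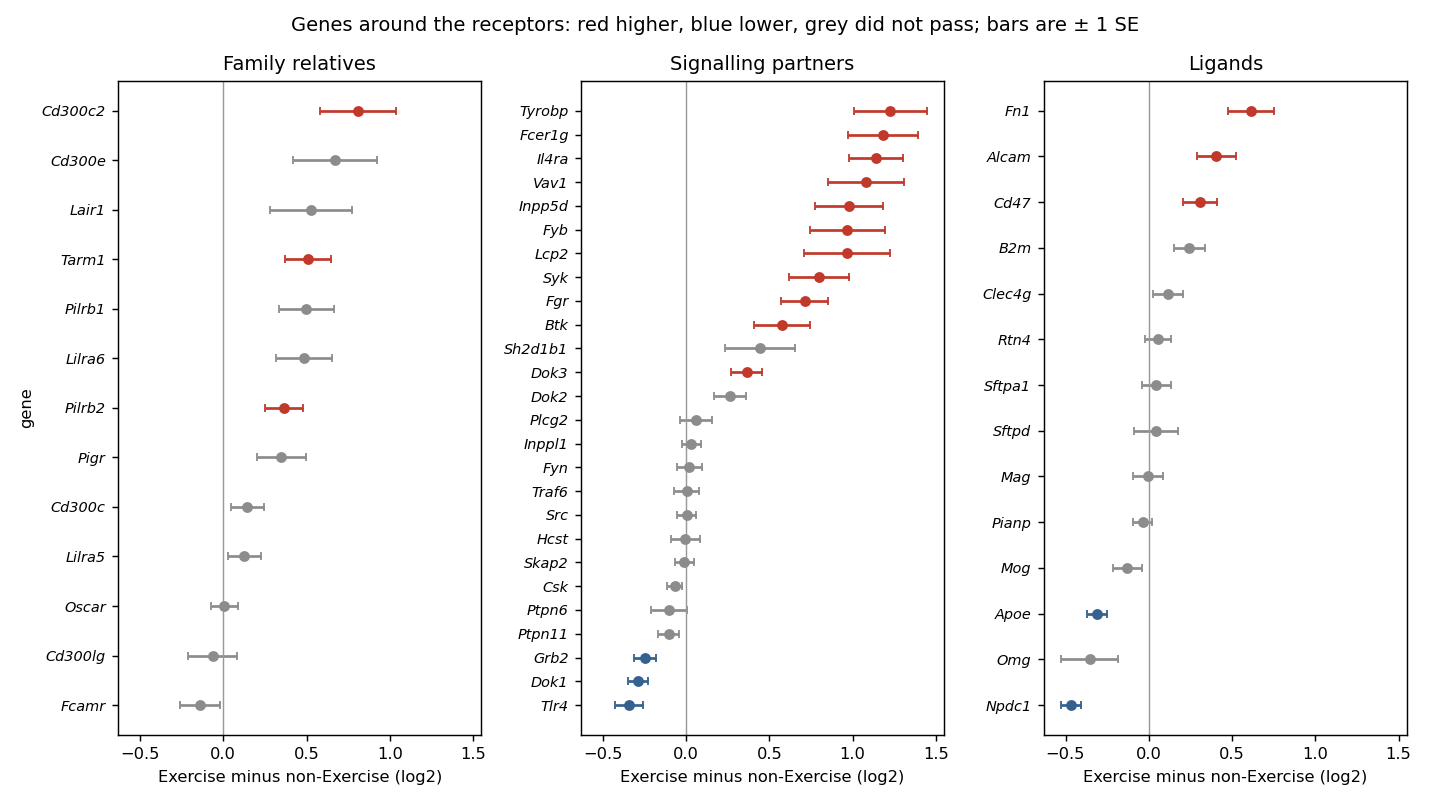
Difference between the groups (Exercise minus non-Exercise, log2, horizontal axes) for 13 family relatives, 26 signalling partners and 14 ligands, with bars of 1 SE; red genes were higher, blue genes lower and grey genes did not pass at a limma adjusted p under 0.05. Tyrobp and Fcer1g lead the partners at 1.23 and 1.18, Ptpn6 and Ptpn11 lie at -0.10 and did not pass, and Npdc1 is the lowest ligand at -0.47.

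The ligand genes included both higher and lower ones: 3 of 14 were called higher and 2 lower, around a median difference of 0.04. Of all genes, 6.35% were called higher and 10.6% lower. Fn1, which encodes fibronectin, a ligand described for LILRB4, rose by 0.61 ± 0.14 (limma adjusted p = 0.00751), with Exercise levels of 12.10 to 12.92 against 11.57 to 12.24. Alcam, an adhesion molecule described as another LILRB4 ligand, rose by 0.40 ± 0.12 (limma adjusted p = 0.0301). Cd47, the ligand of Sirpa, rose by 0.31 ± 0.10 (limma adjusted p = 0.0472), from 10.66 ± 0.11 to 10.97 ± 0.24 (SD, n = 5 each), and its other probe set gave 0.33. B2m, the light chain of the class I molecules that Pirb binds, had a difference of 0.24 ± 0.09 and did not pass (limma adjusted p = 0.0907).

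Npdc1, a neural protein described as a PILRA ligand, read 10.66 to 10.95 in the Exercise and 11.28 to 11.40 in the non-Exercise arrays, with no overlap, as for 8.33% of all genes. It fell by 0.47 on the log2 scale (SE 0.06, limma adjusted p = 0.000263), and by 0.56 without the 3 arrays with hepatocyte transcripts. Apoe, the apolipoprotein reported to bind human LILRB4, fell by 0.31 (SE 0.06, limma adjusted p = 0.00339), with 4 of the 5 Exercise arrays below all non-Exercise arrays, and by 0.42 without the 3 arrays.

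The higher ligands depended on single arrays. Their count of 3 was 1 when any of Exercise arrays 300, 309 and 310 or non-Exercise arrays 326 and 330 was left out, without the 3 arrays with hepatocyte transcripts, and with the arrays centred on their medians. Fn1 was called in each of these, at 0.58 without the 3 arrays. Cd47 lost its call with the table as deposited (0.28), with arrays centred on their medians (0.22), with no intensity trend, and when any of Exercise arrays 300, 309 and 310 or non-Exercise arrays 326, 327, 329 and 330 was left out (adjusted p in limma 0.0216 to 0.117 leaving out 1 array); without the 3 arrays it was 0.15. Alcam did so with centred arrays, with array weights, and when any of Exercise arrays 300, 309 and 310 or non-Exercise arrays 326, 330 and 331 was left out (0.0113 to 0.0840); without the 3 arrays it was 0.41 (limma adjusted p = 0.0782).

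A search over 17290 genes, leaving out the 9 themselves and predicted genes, clone names, microRNA genes and olfactory receptors, gave those whose array-to-array pattern was most like the mean of the 9 receptors. Likeness was the root mean square difference over the 10 arrays between values taken from their own group means, so that the group difference itself plays no part; its median over all genes was 0.29. The 5 nearest were Dact1 (0.0545), Ece1 (0.0637), Mmrn2 (0.0668), Esam (0.0690) and Clec1a (0.0691), of which Ece1 encodes endothelin-converting enzyme and Mmrn2, Esam and Clec1a are known from endothelium. Ece1 was higher in Exercise by 0.56 ± 0.13 (limma adjusted p = 0.0100) and the other 4 did not pass. The 4 endothelial markers, of which 0 passed (1 higher at an unadjusted p under 0.05, limma), averaged 9.63 to 10.46 in the Exercise and 9.57 to 10.07 in the non-Exercise arrays. Over 14 or 15 other settings Dact1 and Ece1 were among the 5 nearest in 13 each, Esam in 9, Mmrn2 in 8 and Clec1a in 6. Among the 9 themselves, Cd300ld lay nearest to their mean (0.11, rank 86 of all 19938 genes) and Lilrb4a farthest (0.24, rank 2226). The measure is not scaled for how much a gene varies. A near rank therefore does not show that a gene follows the receptors more closely than they follow each other.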

How the data were processed

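Whole-transcript arrays of 10 melanoma tumours, 5 Exercise and 5 non-Exercise, were grouped by their titles. Per the submitters' processing notes, PLIER summarised the probe sets; its version and any normalization between arrays are not stated there. The authors deposited values taken as log2 from their range (4.66 to 14.54); the log base and any added constant are not given. RNA came, per the labels' protocols, from either of 2 kits, without saying which tumour had which, and no scan date was used here, so no batch was tested. No 2 arrays shared more than 1 exact value.

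Deposited array medians differed by 0.126, over the limit of 0.1 set for it, so the table was quantile normalized (limma 3.58.1, R 4.3.3). Of 35556 probe sets 21789 had 1 platform symbol, 1621 several and 12146 none listed; 21698 matched GRCm38.p6 RefSeq by Entrez identifier and 0 symbols changed. Where a gene had more than 1 probe set (999 genes), the brightest by mean represented it, giving 19938 genes. The group difference was fitted by lmFit and moderated by eBayes, with the prior variance following intensity; p-values are two-sided and Benjamini-Hochberg adjusted over all genes; code was tested on simulated data. Figures used Python 3.11.15 and matplotlib 3.10.9.

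The 9 genes and all lists were chosen with earlier results of these data known. Named were the 9 genes, in each list up to 4 called genes per direction, 16 fixed genes of which 14 were measured, and the 5 nearest genes; B2m and the genes named among cell type markers were added after their values were seen. Of 77 listed relatives, partners and ligands, 24 were not analysed here. Symbols were matched exactly, and no protein sequence was used. Alternatives were the table as deposited, median centring, leaving out the dimmest 25% of genes, the mean of probe sets, no trend, robust variances, array weights, an adjusted p under 0.10, leaving out each array, and leaving out Exercise arrays 306, 309 and 310. Settings for the nearest genes were added after seeing the data.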

Additional observations from a re-analysis of the deposited data

Results flagged for a closer look

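Of 78 sets of 5 values (39 named genes in each group), 3 held an array far from the other 4 of its group, where chance flags about 1 in 20 sets. Sirpa was lowest in non-Exercise array 331, at 12.64 with the next at 12.71, a gap of 0.783 of the group's range. Ptpn6 was lowest in the same array, at 10.37 with the next at 10.52, a gap of 0.852 of the range. Npdc1 was lowest in Exercise array 300, at 10.66 with the next at 10.89, a gap of 0.805 of the range. Their cause was not tested.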

How the results depend on the processing

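The differences of Lilr4b and Lilrb4a lay between 1.49 and 1.77 and between 1.24 and 1.58 with each array left out; Pirb lay between 0.71 and 1.11, Pilra between 0.63 and 0.95, Cd300a between 0.38 and 0.59, Cd300lb between 0.28 and 0.58, Cd300ld between 0.43 and 0.70, Cd300lf between 0.47 and 0.58 and Sirpa between -0.05 and 0.04. The count of higher receptors, 7, was 5 to 8 with each array left out, 4 with robust variances and 2 without arrays 306, 309 and 310, which leaves fewer samples. Without those 3 arrays 753 of all genes were higher in place of 1266, and 5 partners, 0 relatives and 1 ligand. Higher relatives numbered 5 with the table as deposited and with arrays centred on their medians, 6 at an adjusted p under 0.10, and 0 to 7 with each array left out; higher ligands numbered 1 with centred arrays and 1 to 4 with each array left out. All genes counted higher ranged from 857 to 1528 and lower from 1435 to 2331 with each array left out. Hcst, which did not pass in any setting, changed sign to 0.0609 with the table as deposited and 0.00047 with centred arrays, and ranged from -0.0318 to 0.0475 with each array left out. Cd300lg, which did not pass either, ranged from -0.16 to 0.10 with each array left out, positive without Exercise array 301 alone, and was -0.35 without arrays 306, 309 and 310. The cause of each change was not tested. No paired analysis was possible because the groups share no replicate numbers. Leaving out the dimmest 25% of genes removes Cd300lf, so it has no value there. Dim probe sets limit how well small differences can be measured. Besides Cd300lf, the called genes Pilrb2, Flt3 and Klrk1 had means under 7.97 in both groups.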
